A study of Mus musculus with 160 samples.

Results

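The 6 genes described here are the glutathione peroxidase genes Gpx6, Gpx1, Gpx4, Gpx3, Gpx7 and Gpx8, taken by symbol from the 39179 genes of the deposited count table. They were chosen by their symbols with the measured values of vehicle-treated R6/2 and wild-type (WT) mice known, so that comparison is given below as values without a test, and genotype was tested in the mice that received the compound. The tests of sex and of the compound also use vehicle libraries, and the interaction of drug and genotype contains the vehicle comparison. The family has 2 more annotated members, Gpx2 and Gpx5, which averaged at most 0.071 FPKM in any WT tissue.

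The data are 160 RNA-seq libraries of liver, striatum, cortex and cerebellum from mice aged 12 weeks. R6/2 mice carry Tg(HDexon1)62Gpb, a transgene with the start of the human huntingtin gene and an expanded CAG repeat under the human promoter, and model Huntington's disease. The R6/2 and the WT mice were on a C57BL/6J background, and both had received 1 oral dose, 6 h before, of either vehicle (HP-β-CD in citrate buffer) or CHDI-00340246 at 10 mg/kg. CHDI-00340246 inhibits kynurenine 3-monooxygenase, an enzyme of tryptophan breakdown. For each tissue there were 10 libraries of R6/2 mice given CHDI-00340246, 10 of WT mice given CHDI-00340246, 10 of R6/2 mice given vehicle and 10 of WT mice given vehicle, each with 5 females and 5 males. The labels number the replicates but do not say that the libraries of a group came from separate animals. Library names also carry a number that differs between the libraries of a group, without saying what it stands for. The tests rest on the spread between these libraries, which may be technical. Libraries of different tissues may come from the same animals, which the labels do not say either.

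Glutathione peroxidases reduce hydrogen peroxide and organic hydroperoxides, most of them with glutathione as the electron donor. In some members the catalytic residue is selenocysteine, which is read from a TGA codon with the help of a dedicated selenium machinery, and in the others it is cysteine. Gpx1 is the abundant cytosolic enzyme, Gpx4 reduces lipid hydroperoxides in membranes and holds back ferroptosis, Gpx3 is the secreted plasma enzyme, and Gpx7 and Gpx8 act in the endoplasmic reticulum, where peroxide arises during disulfide formation. Gpx6 is the least studied member; it is a selenoprotein in human and a cysteine enzyme in mouse, and a screen in mouse striatum named it as a modifier of mutant huntingtin toxicity.

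The coding sequence around the catalytic codon shows this division of the family and is printed here for all 8 annotated mouse genes, 5′ to 3′ on the coding strand, with the catalytic codon in capitals. Each stretch has 45 bases and was read from the GRCm38 genome at the GENCODE M21 coding region.
Gpx6: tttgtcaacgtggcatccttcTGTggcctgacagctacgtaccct
Gpx5: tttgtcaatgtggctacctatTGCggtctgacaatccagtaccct
Gpx3: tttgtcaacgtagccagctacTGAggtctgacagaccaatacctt
Gpx1: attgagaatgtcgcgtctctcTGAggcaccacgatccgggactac
Gpx2: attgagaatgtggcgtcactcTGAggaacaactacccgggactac
Gpx4: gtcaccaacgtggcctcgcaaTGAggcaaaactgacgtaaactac
Gpx7: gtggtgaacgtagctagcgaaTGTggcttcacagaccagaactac
Gpx8: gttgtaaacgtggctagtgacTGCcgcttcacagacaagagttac

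Gpx1, Gpx2, Gpx3 and Gpx4 have the selenocysteine codon TGA, and Gpx5, Gpx6, Gpx7 and Gpx8 have a cysteine codon, TGT or TGC. Over this stretch Gpx6 shared 33 of 45 bases with Gpx5 and 32 of 45 with Gpx3, against 22 of 45 with Gpx4. The stretch of Gpx6 lies at chr13:21313756-21313800 on the plus strand, in exon 2, and the catalytic codon is codon 73. The whole gene spans chr13:21312125-21319624. Gpx5 lies near it at chr13:21286429-21292731 on the minus strand, with the processed pseudogene Gm11270 between them. Gpx8 lies elsewhere on the same chromosome, at chr13:113042753-113046410 on the minus strand.

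Each library held 28.5 to 46.3 M estimated counts (M, 1000000), with a mean of 36.5 ± 3.69 M (SD, n = 160), and Xist and Ddx3y matched the labelled sex in 160 of 160 libraries. Gm12695, the gene at the R6/2 insertion site, was higher in 20 of 20 R6/2 libraries than in the highest WT library in each of the 4 tissues. Cell markers were held to a mean of at least 1 CPM in every group (CPM, counts per 1000000 counts of the library). In the striatum 12 of 12 medium spiny neuron genes reached it, and in the cortex 7 of 7 cortical projection neuron genes. So did 4 of 4 granule cell genes in the cerebellum and 6 of 6 hepatocyte genes in the liver. This level does not tell striatum from cortex, since the 12 medium spiny neuron genes also reached it in WT cortex. Their sums did differ in WT mice given CHDI-00340246, with medians of 10840.5 CPM in the striatum and 561 CPM in the cortex. The sum of cortical projection neuron genes had medians of 88.5 CPM in that striatum group and 1923 CPM in that cortex group. Some cerebellum and cortex libraries also had high levels of choroid plexus markers. The sum of 8 choroid plexus markers ran from 19.2 to 2959 CPM over the cerebellum libraries of R6/2 and WT mice.

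Levels of different genes are compared on the scale of the authors' FPKM, which is per length, in the 20 WT libraries of each tissue. Gpx4 was at a similar level everywhere, with 204 ± 17.1 FPKM in the striatum, 209 ± 16 in the cortex, 183 ± 15.9 in the cerebellum and 190 ± 19.4 in the liver (SD, n = 20 each), and these 4 ranges overlapped. Gpx1 had 1092 ± 184 FPKM in the liver, 73.2 ± 11.7 in the striatum, 38.1 ± 3.52 in the cortex and 30.1 ± 3.1 in the cerebellum. The liver thus stood apart for Gpx1, and the striatum came next without overlap with the cortex.

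Gpx6 had 6.43 ± 3.13 FPKM in the WT striatum, with a range of 3.29 to 14.6, and 0.77 ± 0.44 in the liver, with a range of 0.25 to 1.9. In the cerebellum it averaged 0.071 FPKM and in the cortex 0.034, and some libraries of both were listed at 0. The striatum therefore stood apart from the other 3 tissues for Gpx6 with no overlap, while cortex and cerebellum did not differ beyond their spread. Gpx3 had 3.75 ± 0.84 FPKM in the cortex, 3.14 ± 1.48 in the striatum, 1.83 ± 0.55 in the cerebellum and 1.61 ± 0.39 in the liver, each neighbour in this order overlapping the next. Gpx7 ran from 1.97 ± 0.29 FPKM in the striatum to 1.29 ± 0.5 in the liver. Gpx8 ran from 4.08 ± 1.46 FPKM in the cerebellum to 0.56 ± 0.15 in the liver, and the liver did not overlap with any brain tissue.

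**Figure D1:**
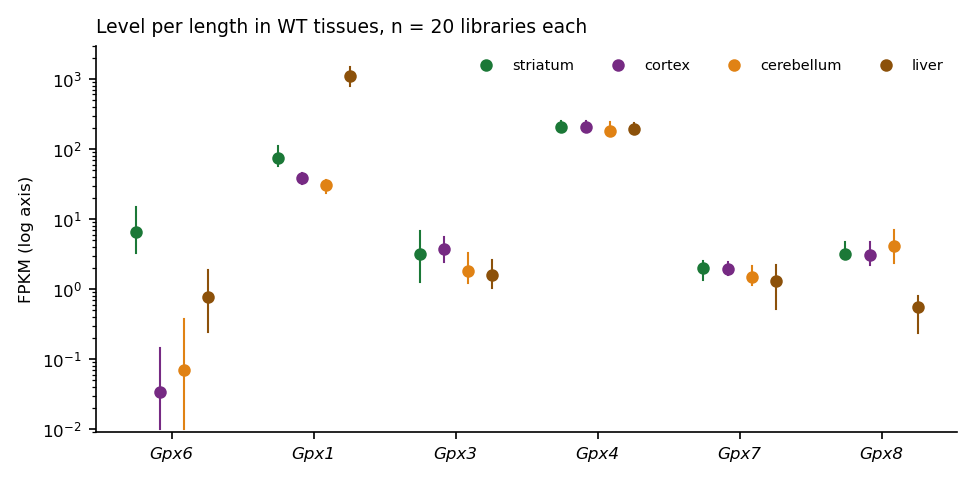
Level of the 6 genes in WT mice, in FPKM on a log axis, by tissue; dots are means of 20 libraries and lines run from the lowest to the highest library (lines that reach a library listed at 0 are drawn to the bottom of the axis). Gpx6 spans from 0.034 FPKM in the cortex to 6.43 in the striatum, while Gpx4 lies between 183 and 209 in all 4 tissues.

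Gpx6 was close to 0 in the R6/2 striatum. Among mice given CHDI-00340246 it had a median of 0.13 CPM in R6/2 striatum, with a range of 0 to 0.36, against 5.67 CPM in WT striatum, with a range of 4.2 to 20.4 (10 libraries each). The 10 R6/2 libraries held 55 Gpx6 counts in all and the 10 WT libraries 2715. Every R6/2 library was below the lowest WT library. The log2 fold change of R6/2 over WT was -5.55 ± 0.27 (SE), a level 47 times lower, with an adjusted p of 1.7e-19 by edgeR's quasi-likelihood test with Benjamini-Hochberg adjustment. Of the 17494 genes tested in the striatum, 4 had a lower log2 fold change. In this comparison 58.1% of all genes passed at an adjusted p under 0.05, so a pass by itself is common there. The share of all genes whose groups do not overlap is not given here, for this or any later comparison.

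Among mice given vehicle, the pair of groups with which the gene was chosen, Gpx6 had a median of 0.082 CPM in R6/2 striatum (0.027 to 0.19) and 9.33 CPM in WT striatum (5.21 to 16.5). These groups did not overlap either, and the log2 fold change was -6.46 ± 0.28 (SE). In bulk tissue, fewer cells of a type and less RNA per cell cannot be told apart. The sum of 12 medium spiny neuron markers was also lower in the R6/2 striatum, with a median of 2941 CPM (2421 to 3325) in R6/2 mice given CHDI-00340246 and 10840.5 CPM (8754 to 12034) in WT mice given CHDI-00340246. Their part in the Gpx6 result was not tested.

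**Figure D2:**
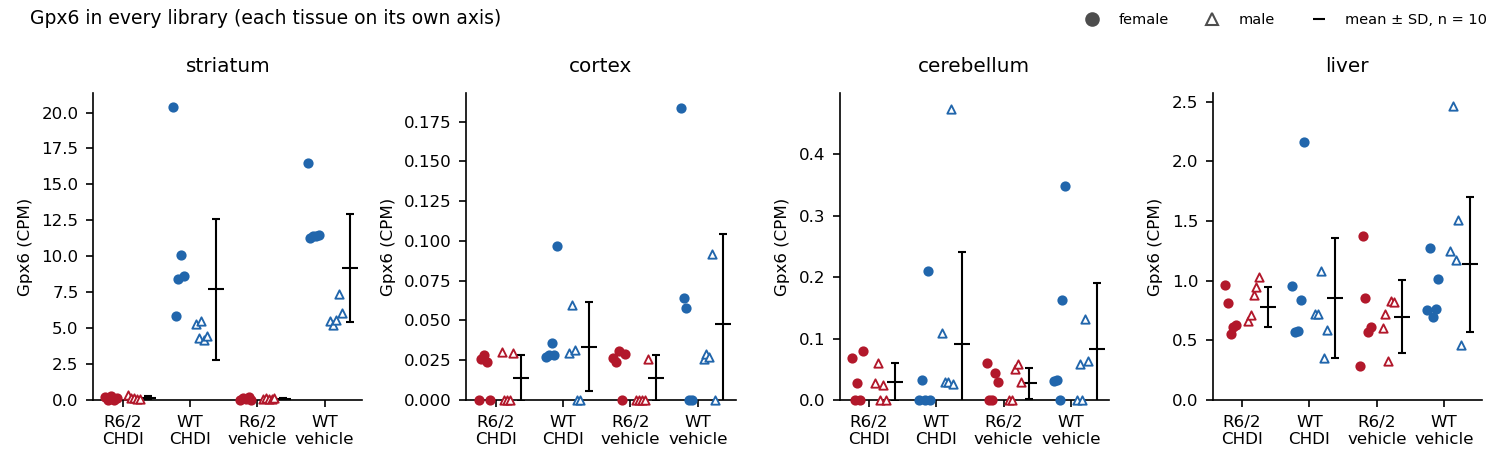
Gpx6 in CPM in each of the 160 libraries, 1 panel per tissue with its own axis; filled circles are females, open triangles males, and bars give the mean ± SD of 10 libraries (CHDI, mice given CHDI-00340246). In the striatum the 20 R6/2 libraries lie at or below 0.36 CPM and the 20 WT libraries at or above 4.2 CPM; in the liver the groups overlap.

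In the liver the groups overlapped. Gpx6 had a median of 0.76 CPM (0.55 to 1.03) in R6/2 mice given CHDI-00340246 and 0.72 CPM (0.35 to 2.16) in WT mice given CHDI-00340246. The log2 fold change was -0.12 ± 0.26 (SE, adjusted p = 0.77 by edgeR). Among vehicle mice the liver value was -0.67 ± 0.26, from 0.7 ± 0.31 CPM in R6/2 and 1.14 ± 0.57 CPM in WT mice (SD, n = 10 each). In a joint edgeR fit of the 4 tissues, the genotype effect on Gpx6 in mice given CHDI-00340246 was lower in the striatum than in the liver, with a difference of -5.42 ± 0.45 (log2 ± SE) and an adjusted p of 7.5e-21. Of all genes, 36.7% passed that test. The joint fit treated libraries of different tissues as independent, although they may share animals.

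In the cortex 5 counts in the 10 R6/2 libraries stood against 12 in the 10 WT libraries of mice given CHDI-00340246, and in the cerebellum 11 against 31. With vehicle the counts were 5 against 18 in the cortex and 10 against 28 in the cerebellum. Single WT cerebellum libraries held 16 of the 31 counts and 13 of the 28. Gpx6 did not pass the filter on low counts in these 2 tissues, so the lower R6/2 counts there carry no test here. Its genotype effect in the striatum was therefore not compared with theirs.

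Gpx6 was higher in females than in males of the WT striatum. Its 5 female WT libraries given CHDI-00340246 had 5.85, 8.42, 8.66, 10.1 and 20.4 CPM, and the 5 male ones 4.2, 4.29, 4.47, 5.29 and 5.5 CPM. With vehicle the 5 female WT libraries had 11.3, 11.4, 11.4, 11.5 and 16.5 CPM, and the 5 male ones 5.21, 5.51, 5.58, 6.03 and 7.35 CPM. Within either treatment no female library was as low as any male library, and over both treatments 9 of 10 females were above the highest male. The difference, female minus male over the 20 WT libraries, was 1.12 ± 0.19 on the log2 scale (SE), or 2.17 times, with an adjusted p of 9.5e-04 by edgeR.

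Differences by sex were rare in the WT striatum: 19 of 17494 genes passed, or 0.109%, and 12 of these lie on the X or Y chromosome. Gpx6 was 1 of the 7 elsewhere and 1 of 2 among them with the higher level in females, the other being Gskip. The difference was 1.17 ± 0.26 with CHDI-00340246 (adjusted p = 0.11) and 1.06 ± 0.26 with vehicle (adjusted p = 0.26), each from 5 females and 5 males. With the L number of the library names as a covariate the size stayed at 1.06 ± 0.27 and the adjusted p became 0.21; the labels do not say what this number stands for. Without the WT female library of 20.4 CPM the difference still passed (edgeR adjusted p = 0.0036).

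No such difference was measured in the R6/2 striatum, where Gpx6 averaged 0.11 ± 0.097 CPM in females and 0.13 ± 0.084 CPM in males (SD, n = 10 each) and the log2 difference was -0.24 ± 0.42 (edgeR adjusted p = 0.97). Whether the genotypes differ in it was tested by their interaction in mice given CHDI-00340246, -1.43 ± 0.61 with an unadjusted p of 0.024 and an edgeR adjusted p of 1, which did not pass. In the liver of WT mice Gpx6 averaged 0.96 ± 0.47 CPM in females and 1.03 ± 0.63 CPM in males, a log2 difference of -0.025 ± 0.26.

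No neighbouring gene that passed the filter fell as far as Gpx6. Of the 5 annotated genes on either side, Trim27, Zscan12 and Zkscan3 passed the filter. In the striatum of mice given CHDI-00340246, Trim27 was 0.37 ± 0.06 higher in R6/2 than in WT mice on the log2 scale, Zscan12 0.4 ± 0.06 higher, and Zkscan3 fell by 0.23 ± 0.07 (edgeR adjusted p = 8.3e-07, 5.0e-07 and 0.0027). Gpx5 was at 0 in all but 1 of the 40 striatum libraries, that one an R6/2 library given CHDI-00340246 with 0.027 CPM. Olfr1368, Gm11270, Olfr1367, Gm11271 and Mir6942 did not pass the filter in any tissue, and Gm47806 was not analysed here.

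Within WT striatum the Gpx6 level was set against 8 regional marker genes over 20 libraries, as log2 CPM after taking off the mean of each treatment and sex. Drd1, the dopamine receptor of direct pathway neurons, had r = 0.68 (permutation p = 0.0055, adjusted over the 8 pairs 0.044) and rho = 0.67 (p = 0.0014, adjusted 0.011). Without the 2 libraries farthest from the Drd1 median r was 0.54 with an adjusted p of 0.15, so the relation rests in part on those libraries. Penk, the enkephalin precursor of indirect pathway neurons, had r = 0.53 (permutation p = 0.019, adjusted 0.077), and -0.05 without its 2 farthest libraries. Drd2, Tac1, Crym, Cnr1, Ttr and the cortical gene Slc17a7 had r between -0.36 and 0.44, and none passed.

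The genes most like Gpx6 in the spread within the 8 groups of genotype, treatment and sex in the striatum (40 libraries, WT mean of at least 1 CPM) were Fos, an activity-induced transcription factor gene, with r = 0.63, Ppif with 0.63, Car8 with 0.62, Tpm1 with 0.59 and Cacng4 with 0.57. Over the 16 group means of all tissues they were Tbl1x with r = 0.97, Fblim1 with 0.96, Kremen1 with 0.96, Tpst1 with 0.95 and Rhot2 with 0.93. These are descriptions, and the libraries of a group share their tissue and treatment. The R6/2 libraries among the 40 held at most 12 Gpx6 counts each, so the spread of Gpx6 within their groups lies near the floor of the measurement. Of the first 5, Fos averaged 4.97 ± 2.28 CPM in R6/2 striatum and 9.96 ± 4.02 CPM in WT striatum of mice given CHDI-00340246 (SD, n = 10 each), and Cacng4, a subunit of AMPA receptor complexes, 60.2 ± 4.91 and 147.5 ± 14.7 CPM. The difference by sex in the WT striatum passed for neither (edgeR adjusted p = 0.95 for Fos and 0.61 for Cacng4).

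The remaining 5 members differed far less between the genotypes than Gpx6. Over the 4 tissues of mice given CHDI-00340246, their log2 fold changes of R6/2 over WT lay between -0.66 and 0.51. Of the 6 members tested in the striatum, 4 passed at an adjusted p under 0.05: Gpx6 and Gpx3 were lower and Gpx7 and Gpx8 higher. In the cortex 2 of 5 passed, where 57.1% of all genes did, in the cerebellum 2 of 5, where 54.6% did, and in the liver 2 of 6, where 28.8% did. The members' shares were thus near those of all genes or below them.

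**Figure D3:**
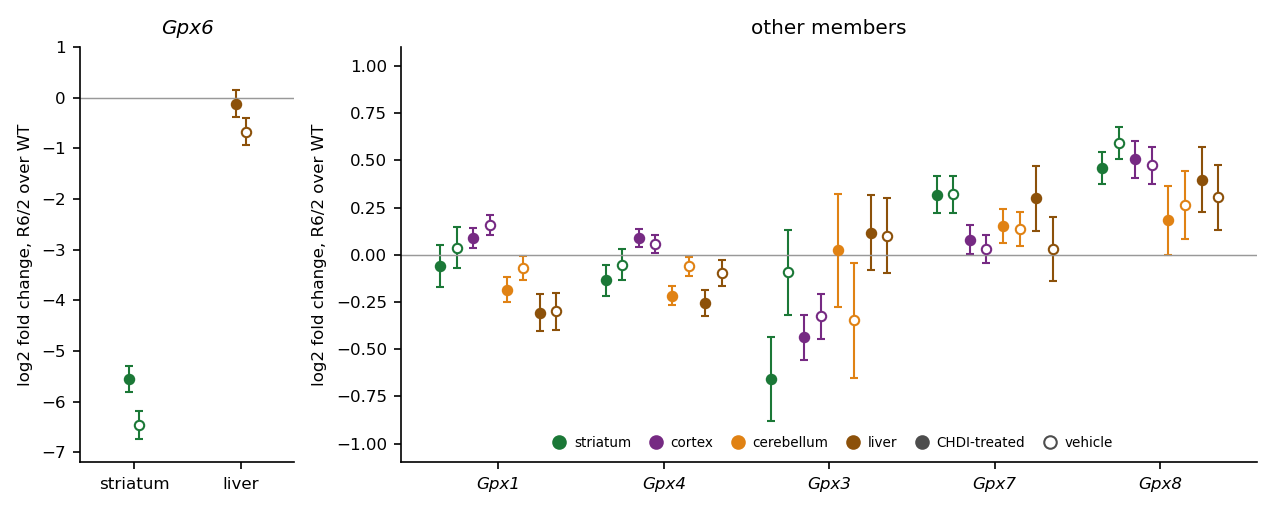
Log2 fold change of R6/2 over WT (edgeR, ± SE) for Gpx6 in striatum and liver (left) and for the other 5 members in the 4 tissues (right); filled dots are mice given CHDI-00340246 and open dots vehicle mice. Gpx6 in the striatum lies at -5.55 and -6.46, and the other members all lie between -0.66 and 0.59.

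Gpx8, a membrane protein of the endoplasmic reticulum, was higher in R6/2 striatum and cortex. In the striatum of mice given CHDI-00340246 it had a median of 4.69 CPM (3.95 to 5.31) in R6/2 and 3.17 CPM (2.84 to 5.31) in WT libraries. All 10 R6/2 libraries were above the WT mean, and a single WT library, female 1, overlapped with them. The log2 fold change was 0.46 ± 0.08 (SE), with an edgeR adjusted p of 1.5e-05. With vehicle the medians were 5.04 CPM (4.66 to 6.03) in R6/2 and 3.32 CPM (2.9 to 4.06) in WT striatum, with no overlap, and the value was 0.59 ± 0.08.

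In the cortex Gpx8 had a median of 4.48 CPM (3.67 to 5.44) in R6/2 and 3.05 CPM (2.33 to 4.91) in WT mice given CHDI-00340246. All 10 R6/2 libraries were above the WT mean again, and the log2 fold change was 0.51 ± 0.1 (edgeR adjusted p = 3.2e-05). The vehicle value was 0.47 ± 0.1. In the liver Gpx8 was near the floor of the measurement, with 0.77 ± 0.16 CPM in R6/2 and 0.59 ± 0.19 CPM in WT mice, and the log2 difference of 0.4 ± 0.17 did not pass (adjusted p = 0.081).

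In the cerebellum Gpx8 averaged 4.67 ± 1.13 CPM in R6/2 and 4.1 ± 1.33 CPM in WT mice given CHDI-00340246 (SD, n = 10 each), a log2 difference of 0.18 ± 0.18 (edgeR adjusted p = 0.42). There its level moved with the choroid plexus markers, by 0.13 ± 0.01 on the log2 scale for each doubling of their sum, and in the cortex by 0.07 ± 0.02. With that sum as a covariate the genotype difference was 0.23 ± 0.1 in the cerebellum (adjusted p = 0.056) and 0.53 ± 0.09 in the cortex (adjusted p = 3.6e-06). The difference of the genotype effects between striatum and cerebellum was 0.29 ± 0.19 in the joint fit and did not pass (adjusted p = 0.27), in a test that 27.6% of all genes passed.

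Gpx8 lies inside Cdc20b, which runs on the opposite strand. None of the 1048 exon bases of Gpx8 falls in a Cdc20b exon, and Cdc20b averaged 0.021 CPM in R6/2 striatum and 0.031 CPM in WT striatum of mice given CHDI-00340246. Whether the authors' counting used strand is not given in the sources used here.

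Gpx7, the soluble counterpart of Gpx8 in the endoplasmic reticulum, was higher in the R6/2 striatum. Among mice given CHDI-00340246 it had a median of 3.27 CPM (2.37 to 3.84) in R6/2 and 2.61 CPM (1.7 to 2.88) in WT striatum, and 7 of 10 R6/2 libraries were above the highest WT library. The log2 fold change was 0.32 ± 0.1 (SE, edgeR adjusted p = 0.0051), and the vehicle value was 0.32 ± 0.1 as well. In cortex, cerebellum and liver the values with CHDI-00340246 were 0.08 ± 0.08, 0.15 ± 0.09 and 0.3 ± 0.17, and none passed (adjusted p = 0.4, 0.15 and 0.2).

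Gpx3, the secreted enzyme, was lower in R6/2 cortex and striatum. In the cortex of mice given CHDI-00340246 it had a median of 4.15 CPM (3.77 to 5.36) in R6/2 and 5.77 CPM (3.97 to 7.49) in WT libraries, with 10 of 10 R6/2 libraries below the WT mean. The log2 fold change was -0.44 ± 0.12 (edgeR adjusted p = 0.0019), and -0.33 ± 0.12 with vehicle. With the sum of 3 erythroid markers as a covariate it was -0.35 ± 0.16 and no longer passed (adjusted p = 0.076).

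In the striatum Gpx3 had a median of 3.83 CPM (2.43 to 5.64) in R6/2 and 5.97 CPM (2.28 to 11) in WT mice given CHDI-00340246, a log2 fold change of -0.66 ± 0.22 (edgeR adjusted p = 0.011). The WT libraries spread widely and enclosed all R6/2 libraries. With vehicle the medians were 3.68 CPM in R6/2 and 4.35 CPM in WT striatum and the value was -0.09 ± 0.22. The difference between the treatments, -0.57 ± 0.32, did not pass (adjusted p = 1). Without replicate M4 of each group the value with CHDI-00340246 was -0.54 ± 0.24 and the adjusted p 0.051, and on the FPKM scale the call was lost as well (limma adjusted p = 0.097).

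The cerebellum value of Gpx3 rests on 1 library. In mice given CHDI-00340246 the median was 1.8 CPM (1.49 to 13.3) in R6/2 and 2.77 CPM (2.16 to 4.97) in WT cerebellum, while the means were 3.15 and 3.02 CPM. The R6/2 library male 4 had 13.3 CPM and stood apart from the other 9. With it the log2 fold change was 0.023 ± 0.3, and without replicate M4 of each group it was -0.61 ± 0.2 (edgeR adjusted p = 0.01). In the liver it was 0.12 ± 0.2 and did not pass (adjusted p = 0.7). The genotype effect was lower in the striatum than in the liver, with a difference of -0.76 ± 0.32 (adjusted p = 0.048), a call lost without the filter on low counts (adjusted p = 0.063).

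**Figure D4:**
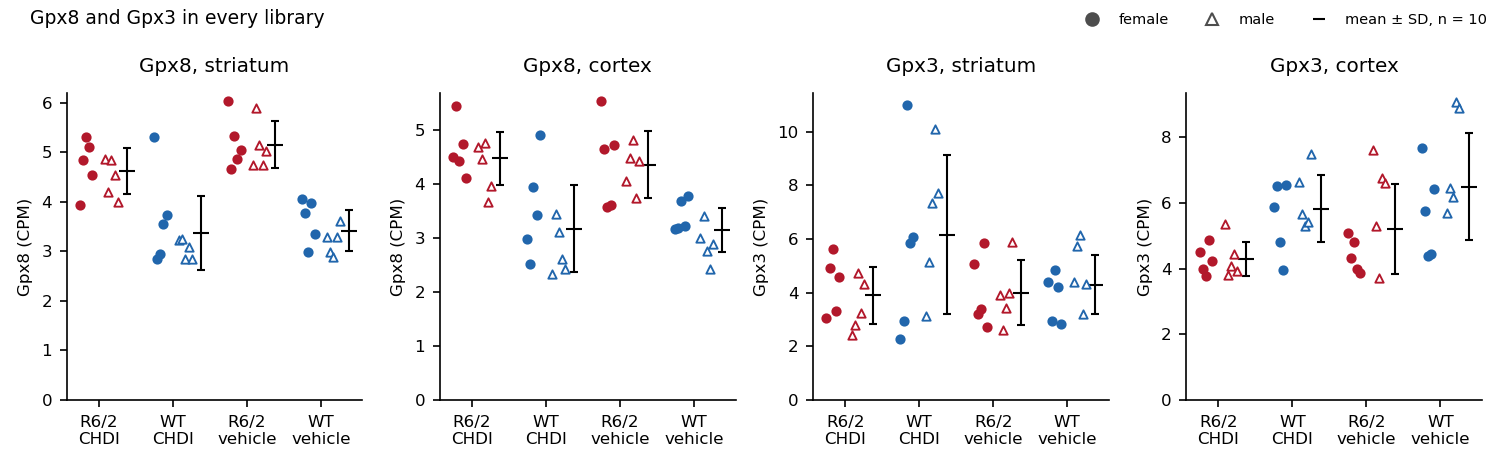
Gpx8 and Gpx3 in CPM in each striatum and cortex library; filled circles are females, open triangles males, and bars give the mean ± SD of 10 libraries (CHDI, mice given CHDI-00340246). The R6/2 libraries of Gpx8 lie above the WT mean in both tissues and treatments; Gpx3 in WT striatum given CHDI-00340246 spreads from 2.28 to 11 CPM.

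Gpx4, the lipid hydroperoxide enzyme, was lower in R6/2 cerebellum and liver. In the cerebellum of mice given CHDI-00340246 it had a median of 145.2 CPM (123.3 to 161) in R6/2 and 166 CPM (161 to 191) in WT libraries, and 8 of 10 R6/2 libraries were below the lowest WT library. The log2 fold change was -0.22 ± 0.05 (edgeR adjusted p = 4.6e-04), against a vehicle value of -0.06 ± 0.05. The difference between the treatments, -0.16 ± 0.07, did not pass (adjusted p = 0.83). In the liver the medians were 147.4 CPM (125.8 to 183) in R6/2 and 172 CPM (139.3 to 246) in WT mice given CHDI-00340246, and the log2 fold change was -0.26 ± 0.07 (adjusted p = 0.0043), against -0.1 ± 0.07 with vehicle.

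In striatum and cortex the log2 fold changes of Gpx4 were -0.14 ± 0.08 and 0.09 ± 0.05 and did not pass (edgeR adjusted p = 0.16 and 0.11). The genotype effect was higher in the cortex than in the cerebellum by 0.29 ± 0.09 in the joint fit (adjusted p = 0.011), a test that 22.3% of all genes passed.

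Gpx1, the cytosolic enzyme, had a median of 30.3 CPM (22.2 to 33.1) in R6/2 and 33.5 CPM (30.2 to 38.2) in WT cerebellum of mice given CHDI-00340246. All 10 R6/2 libraries were below the WT mean, and the log2 fold change was -0.18 ± 0.06 (edgeR adjusted p = 0.014), against -0.07 ± 0.06 with vehicle. In the liver it had a median of 952 CPM (753 to 1125) in R6/2 and 1106 CPM (951 to 1816) in WT mice given CHDI-00340246, with a log2 fold change of -0.31 ± 0.1 (adjusted p = 0.018) and a vehicle value of -0.3 ± 0.1. In striatum and cortex it was -0.06 ± 0.11 and 0.09 ± 0.05 and did not pass (adjusted p = 0.66 and 0.16).

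Erythroid RNA was lower by its median in R6/2 cerebellum and liver too. The sum of the erythroid markers Hba-a1, Hbb-bs and Alas2 had a median of 50.9 CPM (29.2 to 88.4) in R6/2 and 134.5 CPM (67.4 to 189) in WT cerebellum of mice given CHDI-00340246, and 122.8 CPM (74.9 to 158.8) in R6/2 and 234 CPM (92.1 to 536) in WT liver. With this sum as a covariate, the cerebellum values were -0.13 ± 0.07 for Gpx4 and -0.04 ± 0.09 for Gpx1, and the liver values -0.21 ± 0.08 and -0.27 ± 0.12. None of these 4 passed (edgeR adjusted p = 0.17, 0.73, 0.072 and 0.1), while another member did in the liver. For each doubling of the erythroid sum, Gpx1 moved by 0.1 ± 0.04 on the log2 scale in the cerebellum and 0.04 ± 0.08 in the liver. Gpx4 moved by 0.06 ± 0.04 and 0.05 ± 0.05. Gpx1 was also not past the threshold in the liver without replicate F1, F3 or M1 (adjusted p up to 0.063) and in the cerebellum without replicate F2 or M5 (adjusted p = 0.062 and 0.0501) and on the FPKM scale (limma adjusted p = 0.14). On the scale of log2(FPKM + 1), on which the median liver gene was at 0.11, the liver values were -0.04 ± 0.07 for Gpx4 and -0.1 ± 0.1 for Gpx1, with limma adjusted p of 0.7 and 0.43. In the striatum the values with this covariate were -5.4 ± 0.33 for Gpx6, 0.5 ± 0.12 for Gpx8 and 0.42 ± 0.13 for Gpx7, all still past the threshold.

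**Figure D5:**
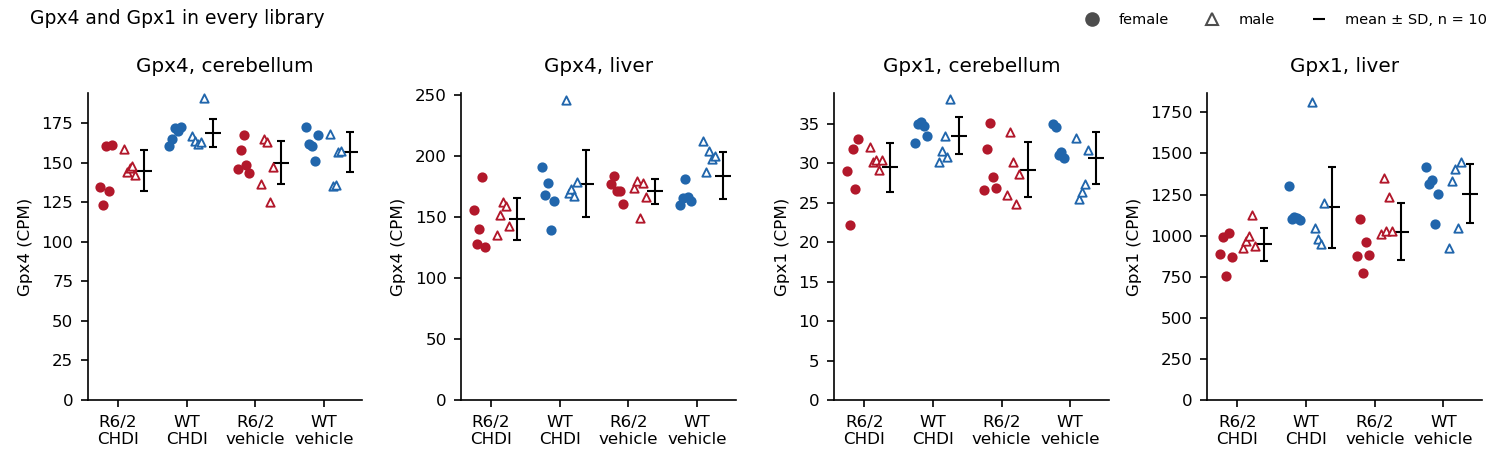
Gpx4 and Gpx1 in CPM in each cerebellum and liver library; filled circles are females, open triangles males, and bars give the mean ± SD of 10 libraries (CHDI, mice given CHDI-00340246). The R6/2 libraries given CHDI-00340246 all lie below the WT mean for Gpx1 in both tissues; for Gpx4 in the cerebellum 8 of 10 lie below the lowest WT library, with medians of 145.2 CPM in R6/2 and 166 CPM in WT.

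No effect of CHDI-00340246 on any member passed the test. Over 22 pairs of gene and tissue, the log2 effect in R6/2 mice lay between -0.26 and 0.64 and in WT mice between -0.4 and 0.52, with 0 passes in edgeR and 0 in DESeq2, and 2 unadjusted p under 0.05 in each genotype. Of all genes, 0%, 0.125%, 0.0407% and 0.0726% passed in R6/2 striatum, cortex, cerebellum and liver, and 0% in each WT tissue. For Gpx6 in the striatum the effect was 0.64 ± 0.41 in R6/2 mice, at the low level given above, and -0.27 ± 0.18 in WT mice. The smallest p was that of Gpx4 in the R6/2 liver, with 148.4 ± 17.6 CPM with CHDI-00340246 and 171 ± 10.2 CPM with vehicle (SD, n = 10 each), a log2 effect of -0.21 ± 0.07 (unadjusted p = 0.0043, adjusted 0.43). The interaction of drug and genotype lay between -0.57 and 0.91, with 0 of 22 passes in edgeR and in DESeq2 and 1 unadjusted p under 0.05. Of all genes, 0% passed it in each tissue by edgeR, and DESeq2 called 1 gene in the striatum and 4 in the liver.

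In the liver 2 of 6 members differed by sex in WT mice, where 32.4% of all genes did. Gpx7 was higher in females by 0.69 ± 0.17 on the log2 scale (edgeR adjusted p = 0.0026), with 10 of 10 females above the male mean. Gpx4 was lower in females, with a log2 difference of -0.21 ± 0.07 (adjusted p = 0.017), with 10 of 10 females below the male mean. With the L number as a covariate these were 0.58 ± 0.27 and -0.17 ± 0.09 and neither passed (adjusted p = 0.13 and 0.17). In cortex and cerebellum 0 of 5 members passed by edgeR or by DESeq2, and 0.114% and 0.116% of all genes did by edgeR. The interaction of genotype and sex in mice given CHDI-00340246 passed for 0 of the 22 pairs in edgeR, with 1 unadjusted p under 0.05, Gpx6 in the striatum. Of all genes, 0% passed it in striatum and in cortex, 0.00581% in the cerebellum and 4.67% in the liver.

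The genes around the family are given by the number that passed in mice given CHDI-00340246, against 58.1% of all genes in the striatum, 57.1% in the cortex, 54.6% in the cerebellum and 28.8% in the liver that passed in either direction. The median log2 change of all genes was 0.01 in each tissue. The counts of each list below are to be read against these shares, and list medians, where given, against these medians. Markers of other cells moved with genotype too: the sum of 7 astrocyte markers had a median of 2363 CPM (2069 to 2439) in R6/2 and 4112 CPM (3630 to 5088) in WT striatum and of 2908 CPM (2727 to 3378) in R6/2 and 4893 CPM (4413 to 6167) in WT cortex, and the sum of 5 Purkinje cell markers 1331 CPM (1199 to 1441) in R6/2 and 4579 CPM (4166 to 5219) in WT cerebellum. None of these groups overlapped, and their part in the results on the members and on these lists was not tested.

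Glutathione synthesis and recycling had 2 of 15 genes higher and 4 lower in the R6/2 striatum of mice given CHDI-00340246, with a median log2 change of -0.06. G6pdx, which supplies NADPH in the pentose phosphate pathway, had 34 ± 1.44 CPM in R6/2 and 45.9 ± 2.52 CPM in WT striatum (SD, n = 10 each), and Pgd, the next NADPH source of that pathway, 32.5 ± 1.05 and 27.9 ± 1.8 CPM. Oplah, which opens 5-oxoproline to glutamate, had 15.2 ± 1.67 and 22.2 ± 2.94 CPM. In the cortex 4 rose and 4 fell, and Gclc, the catalytic subunit of the first step of synthesis, was at 64.9 ± 2.67 CPM in R6/2 and 55.6 ± 3.09 CPM in WT mice. In the cerebellum 1 rose and 7 fell, with a median of -0.17. Gss, glutathione synthetase, had 22.6 ± 1 CPM there in R6/2 and 33.3 ± 3.89 CPM in WT mice, a log2 change of -0.56 ± 0.06. In the liver 1 of 13 rose and 2 fell, and the gene that rose was G6pdx, with 9.63 ± 2.97 CPM in R6/2 and 4.14 ± 0.98 CPM in WT mice (log2 1.23 ± 0.21). G6pdx thus fell in striatum and cerebellum and rose in the liver.

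The thioredoxin and peroxiredoxin genes had 4 of 16 higher and 4 lower in the striatum, 8 and 4 in the cortex, 5 and 4 in the cerebellum, and 1 and 5 in the liver, with medians of -0.03, 0.12, -0.02 and -0.11. Prdx6, a 1-Cys peroxiredoxin that also reduces phospholipid hydroperoxides, had 182 ± 10.0 CPM in R6/2 and 241 ± 22.8 CPM in WT striatum, and its log2 change was -0.4 ± 0.05 in the striatum, -0.34 ± 0.04 in the cortex and -0.27 ± 0.04 in the cerebellum. Prdx4, the peroxiredoxin of the endoplasmic reticulum, had 14.2 ± 1.54 CPM in R6/2 and 10.0 ± 0.89 CPM in WT striatum, a change of 0.5 ± 0.07 that passed beside those of Gpx7 and Gpx8 (edgeR adjusted p = 3.3e-08). Of 4 superoxide and peroxide enzymes, 1 was higher and 2 lower in striatum, cortex and liver, and 1 higher and 0 lower in the cerebellum. Sod2, the mitochondrial superoxide dismutase, was higher by 0.34 ± 0.04, 0.14 ± 0.03 and 0.15 ± 0.03 in striatum, cortex and cerebellum on the log2 scale. It was lower in the liver, with a change of -0.23 ± 0.06. Cat, catalase, was lower, with log2 changes of -0.24 ± 0.04 in the striatum, -0.14 ± 0.04 in the cortex and -0.42 ± 0.1 in the liver, where it had 2097 ± 278 CPM in R6/2 and 2805 ± 433 CPM in WT mice.

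The selenium machinery, on which Gpx1, Gpx3 and Gpx4 depend, had 5 of 11 genes higher and 3 lower in the striatum, 3 and 4 in the cortex, 2 and 2 in the cerebellum and 1 and 2 in the liver. Trnau1ap, which binds the selenocysteine tRNA, was higher in all 3 brain tissues, with 18.3 ± 1.32 CPM in R6/2 and 13.4 ± 1.11 CPM in WT striatum and a log2 change of 0.45 ± 0.05 there, 0.61 ± 0.04 in the cortex and 0.49 ± 0.05 in the cerebellum. In the liver Sephs2, which makes selenophosphate, had 312 ± 21.7 CPM in R6/2 and 409 ± 50.4 CPM in WT mice, a change of -0.39 ± 0.08.

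Other selenoprotein genes had 3 of 14 higher and 6 lower in the striatum, 2 and 5 of 14 in the cortex, 2 and 6 of 13 in the cerebellum and 2 and 3 of 13 in the liver. Dio2, which activates thyroid hormone, had 33.3 ± 4.52 CPM in R6/2 and 69.4 ± 8.28 CPM in WT striatum, a change of -1.06 ± 0.09, and Selenov 0.45 ± 0.15 and 1.3 ± 0.26 CPM. Dio1, the deiodinase of the liver, had 45.7 ± 40.8 CPM in R6/2 and 130 ± 43.8 CPM in WT liver, a change of -2.02 ± 0.25. Selenos, a membrane protein of the endoplasmic reticulum, had 32.9 ± 1.26 CPM in R6/2 and 55.5 ± 6.79 CPM in WT cerebellum.

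Of 10 lipid peroxidation partners of Gpx4, 2 of 9 tested were higher and 1 lower in the striatum, 3 and 3 of 9 in the cortex, 2 and 2 of 9 in the cerebellum, and 0 and 2 of 7 in the liver. Fth1, the ferritin heavy chain that stores iron, had 1109 ± 120.99 CPM in R6/2 and 1586 ± 130 CPM in WT striatum and a log2 change of -0.52 ± 0.07 there, -0.36 ± 0.06 in the cortex and -0.6 ± 0.07 in the cerebellum. Acsl4, which loads membranes with polyunsaturated fatty acids, was higher by 0.3 ± 0.05 in the striatum and 0.28 ± 0.04 in the cerebellum. Ftl1, the ferritin light chain, had 259 ± 20.3 CPM in R6/2 and 201 ± 15.5 CPM in WT cortex, and 2121 ± 308 CPM in R6/2 and 2757 ± 442 CPM in WT liver. Each gene of these lists named as higher or lower passed edgeR's test over all genes in that tissue, with an adjusted p of at most 0.0068.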

How the data were processed

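RNA was extracted with a miRNeasy kit per the labels' protocols, and CASAVA 1.8.2 is named in the submitters' processing notes. For the aligner, the counting program, its strand setting and the genome build, names were not given in the sources used here. Deposited tables hold the authors' estimated counts, which need not be whole, and FPKM values, which scale fragments by gene length and library total. Symbols for 37607 of 39179 Ensembl genes came from GENCODE M21 (GRCm38).

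Library names in the labels tied each count column to its sample. FPKM columns were used by group: only 13 of 160 were closest to the count column with their own name, and 160 to one of their own group.

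Estimated counts were rounded and fitted per tissue with edgeR 4.0.16 in R 4.3.3 (filterByExpr, TMM factors, robust quasi-likelihood test), with 8 means for genotype, treatment and sex over 40 libraries. Filtering left 17494, 17554, 17206 and 15145 genes in striatum, cortex, cerebellum and liver. Benjamini-Hochberg adjustment ran over all genes of a tissue and contrast, with 0.05 as the threshold. Fold changes are edgeR estimates, and SE was taken from the estimate and its F value. CPM values use TMM factors. Differences between tissues came from 1 edgeR fit of all 160 libraries with 32 means and no term for animals that tissues may share. The fit was tested on simulated data. Correlations used log2 CPM with a prior count of 2 and 100000 permutations.

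The alternatives tried were a replicate block, the L number as a covariate, an additive sex term, no filter, RLE factors, DESeq2 1.42.0, limma 3.58.1 on log2(FPKM + 1), and leaving out each replicate number. Choroid plexus and erythroid covariates and leaving out 1 WT library were added after the data were seen, as were the sex contrasts by treatment and in R6/2 mice. The members and the lists were chosen with earlier results of these data known. Named genes are the members, up to 3 genes with the smallest p per list and tissue of which a part is described, 5 neighbours on either side of Gpx6 and 5 genes most like it by each measure. Cdc20b and Gskip were named after their values were seen.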

Additional observations from a re-analysis of the deposited data

Results flagged for a closer look

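Groups of 10 libraries were searched for a library whose gap to its nearest neighbour exceeded Dixon's limit for groups of 10, relative to the group's range. This flagged 18 of 88 groups, over 22 pairs of gene and tissue. The limit flags about 1 in 20 groups of independent, normally distributed values. Apart from Gpx7, each flag fell on the highest library, and some libraries were flagged for several genes. The number of flags is therefore no measure of an excess over chance. In the striatum of WT mice given CHDI-00340246, female 1 was the highest in Gpx6 (20.4 CPM), Gpx1 (109.6 CPM) and Gpx8 (5.31 CPM), and female 2 the lowest in Gpx7 (1.7 CPM). Female 1 also had the lowest sum of cortical projection neuron markers of its group, 40.7 CPM against 82.7 to 150 CPM in the other libraries, and the highest sum of Purkinje markers. Its sum of medium spiny neuron markers was the highest by a little, 12034 CPM against 8754 to 12029 CPM. Its sums of astrocyte and microglia markers were the lowest, 3630 CPM against 3687 to 5088 CPM and 368 CPM against 375 to 473 CPM. Their part in these values was not tested.

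Further striatum libraries were R6/2 vehicle male 2, the highest in Gpx1 (129.9 CPM) and Gpx4 (278 CPM), and WT vehicle female 1, the highest in Gpx1 (123.7 CPM). The first had the highest sum of oligodendrocyte markers of its group, 10291 CPM against 6462 to 8914 CPM. WT vehicle female 1 had the lowest sums of cortical projection neuron, astrocyte and oligodendrocyte markers of its group and the highest of Purkinje markers. In the cortex R6/2 vehicle female 1 was the highest in Gpx4 (224 CPM). In the cerebellum the highest were R6/2 CHDI-00340246 male 4 in Gpx3 (13.3 CPM), WT vehicle male 5 in Gpx3 (5.35 CPM) and WT CHDI-00340246 male 5 in Gpx4 (191 CPM).

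In the liver WT CHDI-00340246 male 1 was the highest in Gpx1 (1816 CPM) and Gpx4 (246 CPM). R6/2 CHDI-00340246 male 1 had 7.27 CPM of Gpx3 and WT vehicle male 5 had 5.32 CPM of Gpx3. For Gpx6 the highest liver libraries were R6/2 vehicle female 2 (1.37 CPM), WT CHDI-00340246 female 5 (2.16 CPM) and WT vehicle male 2 (2.46 CPM).

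The genotype effect in mice given CHDI-00340246 differed between tissues in the joint edgeR fit for Gpx6, by -5.42 between striatum and liver on the log2 scale. It also differed for Gpx4, by 0.29 between cortex and cerebellum, and for Gpx3, by -0.76 between striatum and liver.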

How the results depend on the processing

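The fall of Gpx6 in the R6/2 striatum and the rises of Gpx8 in R6/2 striatum and cortex and of Gpx7 in R6/2 striatum kept their direction and passed under every alternative run in mice given CHDI-00340246. Gpx6 ranged from -5.85 to -2.49 on the log2 scale, the smallest size coming from log2(FPKM + 1), which understates low levels. The counts of members that passed moved as follows. With erythroid markers as a covariate 1 member passed for genotype in the cortex, 0 in the cerebellum and 1 in the liver, and 1 for sex in the WT liver. The member that passed for genotype in the liver was neither Gpx1 nor Gpx4. On the FPKM scale 4 passed in the cortex and 1 in the liver. With the L number 0 passed for sex in WT striatum and 0 in WT liver. Leaving out a replicate number gave 3 to 5 members in the striatum, 2 to 3 in the cortex, 1 to 3 in the cerebellum and 1 to 2 in the liver for genotype, and 1 to 2 for sex in the WT liver. Between striatum and liver 1 member passed without a filter and 1 with limma-trend. Without the 2 farthest libraries 0 regional marker genes passed. The Gpx3 value in the cerebellum ran from -0.61, reversed and past the threshold, without replicate M4, to 0.23 without replicate M2. The cause of these changes was not tested. The FPKM scale also moved all genes. In mice given CHDI-00340246 it called 5121 higher and 497 lower of 15145 in the liver, against 2285 and 2078 for edgeR. In the striatum it called 7825 and 3229 of 17494, against 5195 and 4974. In the cortex it called 6895 and 3609 of 17554, against 5128 and 4899. The shares of all genes that passed under the other settings of this paragraph are not given here, so those counts are no result about the members. Replicate numbers did not pair the libraries: the median correlation of same-numbered libraries was -0.0076 in the striatum, 0.026 in the cortex, -0.017 in the cerebellum and 0.0085 in the liver. With the replicate block 4, 2, 2 and 2 members passed for genotype in striatum, cortex, cerebellum and liver, as without it. Gpx6 in cortex and cerebellum is limited by its low counts, with at most 31 in a group of 10 libraries.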
